A study of Mus musculus with 8 samples.

Results

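Gene families that carry chloride and other anions across membranes of the cell were followed in the ventral pallidum (VP) of the mouse: the CLC chloride channels and transporters Clcn2, Clcn3, Clcn4, Clcn5, Clcn6 and Clcn7, and the voltage-dependent anion channels (VDAC porins) Vdac1, Vdac2 and Vdac3. The genes were taken by symbol, and no measured value entered the rule, although they were chosen with earlier results of these data known. All 9 of the 9 genes had a row among the 14353 genes listed, and all 9 passed the filter on low values, as did 14249 of the genes listed.

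The study asked which genes are translated in glutamatergic neurons of the VP (VP_Glu), a basal forebrain region. Its mice were VGluT2-Cre x Rpl22, homozygous for the Cre, which is expressed from the vesicular glutamate transporter gene Slc17a6, and heterozygous for Rpl22, the RiboTag allele that gives Cre-positive cells an HA-tagged ribosomal protein. Each of 4 pools, named VP1.6, VP2.2, VP2.6 or VP2.11, held untreated male and female mice, 7 to 11 a pool and 38 in all (15 male, 23 female), aged 9 to 12 weeks in VP1.6 and 10 to 16 weeks in the other 3. These numbers and ages follow the labels, whereas the methods give more samples, more mice and a narrower range of ages. Each pool gave 1 TRAP library (RNA pulled down on tagged ribosomes) and 1 INPUT library. INPUT is labelled as RNA from all neurons and glia, although the methods also name an unbound fraction as the one sequenced. As whole-tissue RNA it would also contain that of VP_Glu neurons. The tag follows Cre expression, so TRAP samples any Cre-positive cell in the tissue punch and not a sorted cell type, and fewer cells of a type cannot be told apart from less RNA per cell in either fraction.

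CLC proteins form dimers in which each subunit has its own anion pathway. Clcn2 encodes a plasma membrane chloride channel, whereas the products of Clcn3 to Clcn7 sit on endosomes and lysosomes and mostly exchange chloride for protons, working beside the V-ATPase proton pump. VDAC porins are beta barrels of the mitochondrial outer membrane that pass ATP, ADP and other small anions, and they bind partners such as hexokinase.

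Because the reads were 75 bases long, the likeness of the genes decides how far their reads can be told apart. The coding sequences of Clcn3, Clcn4 and Clcn5, the endosomal branch, were 68.3% to 72.2% identical in pairs, against 53.3% for Clcn6 with Clcn7 and 44.9% to 48.7% for the other CLC pairs. The stretch of 60 coding bases at which the endosomal branch was most alike is shown because it is the worst case for sharing reads. Capitals mark the 46 of 60 bases that all 3 genes share, and the sequences are from GENCODE release M21 (GRCm38).
Clcn3: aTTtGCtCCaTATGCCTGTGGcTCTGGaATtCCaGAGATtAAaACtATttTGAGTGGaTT
Clcn4: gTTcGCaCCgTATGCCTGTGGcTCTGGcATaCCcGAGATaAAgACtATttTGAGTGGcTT
Clcn5: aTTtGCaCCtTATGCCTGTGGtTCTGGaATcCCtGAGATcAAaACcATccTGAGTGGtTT

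The VDAC genes were 66.8% to 71.5% identical in pairs. In their most alike stretch, printed for the same reason, capitals mark the 43 of 60 bases shared by all 3.
Vdac1: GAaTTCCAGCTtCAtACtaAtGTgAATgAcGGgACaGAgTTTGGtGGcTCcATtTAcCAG
Vdac2: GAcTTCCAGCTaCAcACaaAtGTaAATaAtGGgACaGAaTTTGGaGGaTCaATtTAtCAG
Vdac3: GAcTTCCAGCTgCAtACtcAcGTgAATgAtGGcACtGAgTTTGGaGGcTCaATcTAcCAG

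Even in these stretches the genes differed every few bases, and no 75-base window of a member was shared with another member. No window of Clcn5, Clcn6 or Vdac1 occurred in the annotated transcripts of any other gene. The largest share was that of Vdac3, with 11.4% of its windows shared, nearly all of them (567 of 623) with Vdac3-ps1, a processed pseudogene on chromosome 13 that was 99.5% identical to the Vdac3 coding sequence over 852 bases. The pair is printed here over 60 bases, with capitals at the bases that differ, since these are the positions that separate their reads.
Vdac3: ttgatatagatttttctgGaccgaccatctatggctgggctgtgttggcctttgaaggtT
Vdac3-ps1: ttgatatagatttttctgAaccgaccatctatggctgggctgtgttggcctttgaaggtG

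Clcn4 shared 9.05% of its windows with Gm45631, which overlaps 985 of its 8575 exon bases on the opposite strand and has no row in the table. The levels of Vdac3 and Clcn4 are therefore uncertain to the extent that reads were split, dropped or taken in there. The share was 1.49% or less for the remaining members.

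Levels were deposited as log2 CPM. In the 2 pools where reads could be recovered, deposited levels of CLC genes were set beside their reads scaled to estimated library size. They differed by -1.06 to 0.12 on the log2 scale, by nearly the same amount in both libraries of a pool. Levels of single libraries, their order among pools and their SDs are therefore those of the deposited, shifted values, whereas TRAP minus INPUT within a pool is free of a shift common to both. The shift differed between genes, so the order of genes and the family shares below also rest on the shifted values. Genes are compared with each other below only as CPM per kilobase of exon. Differences between fractions were tested in limma with the pool as a block, and adjusted p-values are Benjamini-Hochberg over the 14249 genes. In this test 32.2% of all genes passed an adjusted p of 0.05, 15.4% higher and 16.8% lower in TRAP, and the median log2 difference over all genes was -0.05. Of the 9 members 1 passed, Clcn5, which was higher in TRAP. The share of members called was thus below the share of all genes called, but 1 call among 9 genes is a description only and was not tested against that share. All 9 mean differences lay above 0, as they did for 47.6% of all genes, and their median was 0.29. Of the 36 differences of a member in a pool, 27 were above 0, among them 9 of 9 in VP2.2 but 5 of 9 in both VP2.6 and VP2.11. The share of all genes above 0 in each pool was not taken, so these counts have no background and are a description only.

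**Figure D1:**
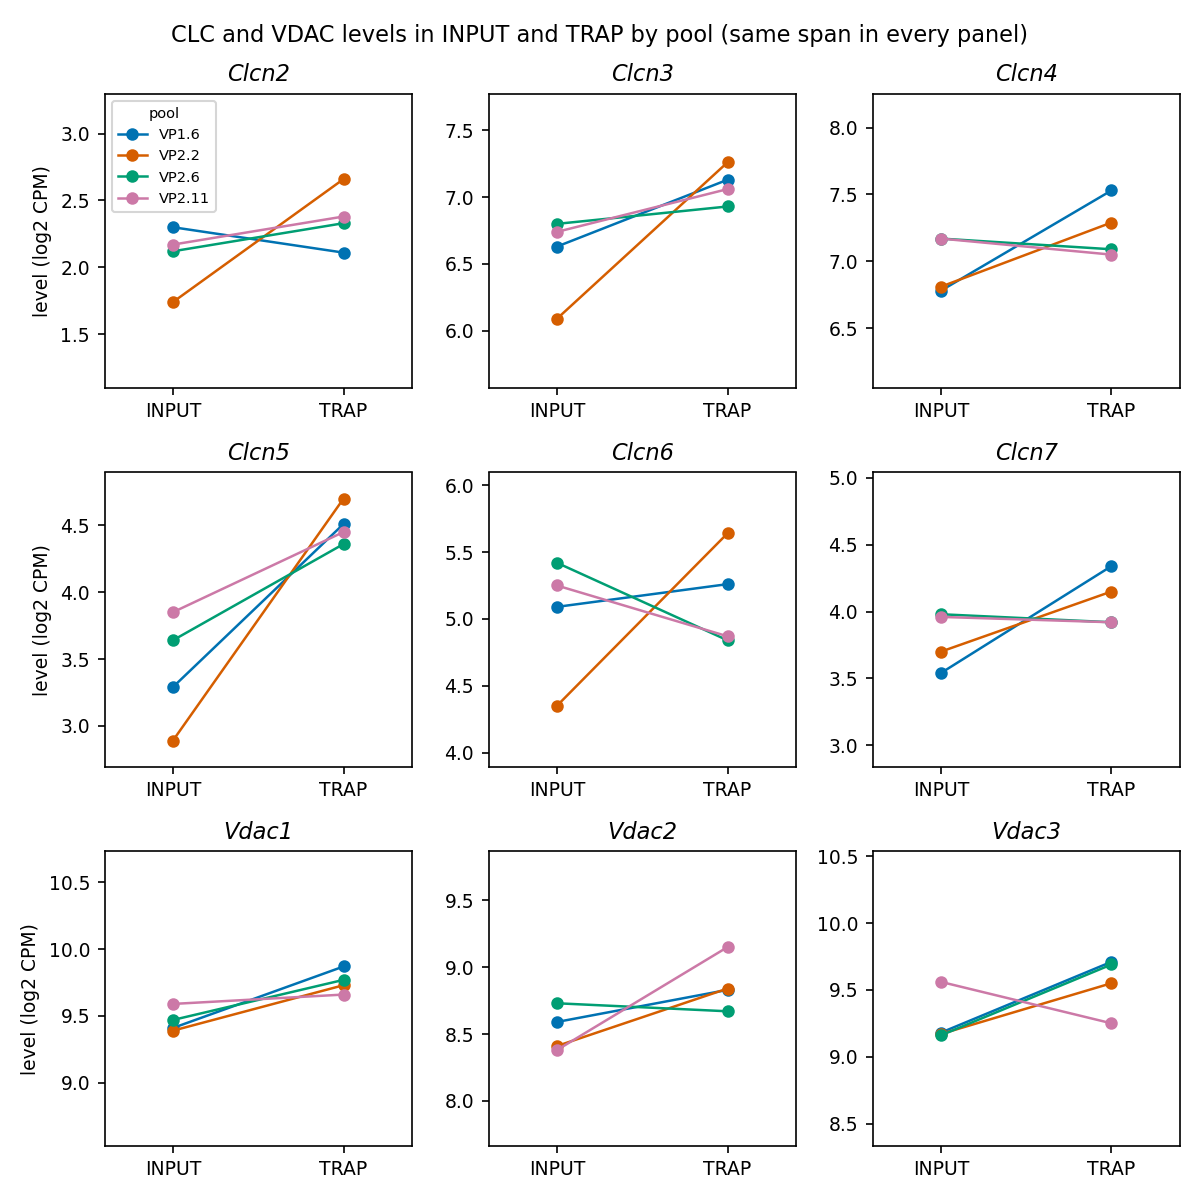
Level of each CLC and VDAC gene (log2 CPM, y axis) in INPUT and TRAP (x axis). Points are single libraries, lines join the fractions of a pool, and every panel spans the same range of log2 units. Clcn5 rose in every pool and its fractions do not overlap, whereas the lines of Clcn2, Clcn4, Clcn6, Clcn7, Vdac2 and Vdac3 run in both directions.

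Clcn5 encodes the endosomal chloride/proton exchanger whose loss causes Dent disease of the kidney. In the TRAP libraries it stood, taking VP1.6 first, then VP2.2, VP2.6 and last VP2.11, at 4.51, 4.70, 4.36 and 4.45 log2 CPM. In the INPUT libraries of the same pools it stood at 3.29, 2.89, 3.64 and 3.85 log2 CPM. Every TRAP library was above every INPUT library, as in 23.3% of all genes. The values of each pool lay on either side of a common level per gene, so this adds nothing to the direction within pools. VP2.2 held both the highest TRAP and the lowest INPUT value, which for the same reason only restates the large difference of that pool. The mean level was 22.8 ± 2.35 CPM in TRAP and 11 ± 3.08 CPM in INPUT (SD, n = 4). The log2 difference was 1.09 ± 0.28 (SE), or 2.12-fold, with a 95% interval of 0.49 to 1.69 (limma, adjusted p = 0.0091). It was found in 4 of 4 pools, with values of 1.22, 1.81, 0.71 and 0.60. Leaving out 1 pool at a time gave 0.84 to 1.25, with adjusted p-values of 0.01 to 0.043.

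Exon length moved with the difference across all genes. The median log2 difference was -0.63 among the 3563 genes with the shortest exon sequence, up to 2506 bases, and 0.35 among the 3562 with the longest, from 6745 bases up, to which Clcn5 (11452 bases), Clcn3 (17071 bases) and Clcn4 (8575 bases) belonged. With the length trend taken out, Clcn5 differed by 0.66 (limma, adjusted p = 0.052) and no member passed, against 32.4% of all genes. The part of transcript length in the Clcn5 difference was not tested further.

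Clcn5 lies on the X chromosome (chrX:7153810-7319358, minus strand, GRCm38). Its reads could be recovered as whole numbers in the 2 pools whose values were deposited unrounded. They came to 409 in TRAP and 352 in INPUT of VP2.2, and to 259 and 314 in VP2.6. Effective library sizes were estimated from the reads and deposited levels of low genes. The sizes of a pool can thus hold an unknown factor common to its TRAP and INPUT, which their ratio does not hold. In VP2.2 they were 12.6 M for TRAP and 38.2 M for INPUT, and in VP2.6 12.5 M and 24.8 M. By this measure INPUT was 3.02 and 1.99 times as large. Effective sizes can include normalization factors and are not counted read totals, and those of the other 2 pools are unknown. The 2 genes nearest to Clcn5 over the 8 libraries, by the Euclidean distance of their log2 CPM after each gene was centred on its mean, were Ric3, a chaperone of nicotinic acetylcholine receptors (distance 0.183, Pearson r = 0.997), and Tfrc, the transferrin receptor (distance 0.19, r = 0.995). Their log2 differences were 1.01 and 1.07. These r values are descriptions over 8 libraries that share 4 pools and were picked as the closest of all genes.

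Clcn3 (chr8:60910389-60983300, minus strand), whose product is found on endosomes and synaptic vesicles, came next in size of difference. Its TRAP libraries stood at 7.13, 7.26, 6.93 and 7.06 log2 CPM in the order of pools above, and its INPUT libraries at 6.63, 6.09, 6.80 and 6.74. The fractions did not overlap, although the gap was only 0.13 within VP2.6. The log2 difference was 0.53 ± 0.23 (SE), with a 95% interval of 0.04 to 1.01, and did not pass (limma, adjusted p = 0.088). Without VP2.2 it was 0.32. It passed in the fit without the pool block (limma, adjusted p = 0.024), in which 47.9% of all genes passed. That fit ignores that the values of each pool lay on either side of a common level, which understates its error. The pass therefore carries little weight. With the length trend taken out the Clcn3 difference lay at -0.05.

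Clcn4 (chr7:7282309-7300851, minus strand), the remaining endosomal exchanger, which pairs with the Clcn3 product, stood at 7.53, 7.29, 7.09 and 7.05 log2 CPM in TRAP and 6.78, 6.81, 7.17 and 7.17 in INPUT. The direction split by pool: TRAP was above INPUT by 0.75 and 0.48 in VP1.6 and VP2.2, and below it by 0.08 and 0.12 in VP2.6 and VP2.11. The mean log2 difference was 0.26, with a 95% interval of -0.22 to 0.74 (limma, adjusted p = 0.41). It was 0.09 without VP1.6 and became -0.06 with the length trend taken out.

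The lysosomal members behaved in the same divided way. Clcn7 (chr17:25133391-25162104, plus strand), which with its partner Ostm1 exchanges chloride for protons in lysosomes and at the osteoclast border, was higher in TRAP by 0.80 and 0.45 in VP1.6 and VP2.2 and lower by 0.06 and 0.04 in VP2.6 and VP2.11 on the log2 scale. Its TRAP libraries stood at 4.34, 4.15, 3.92 and 3.92 log2 CPM and its INPUT libraries at 3.54, 3.70, 3.98 and 3.96. Its levels were 17.0 ± 2.45 CPM in TRAP and 14.0 ± 2.03 CPM in INPUT (SD, n = 4), a log2 difference of 0.29 with a 95% interval of -0.29 to 0.86 (limma, adjusted p = 0.44). Without VP1.6 the difference was 0.12. Clcn6 (chr4:148004259-148038821, minus strand), a late endosomal exchanger expressed mainly in neurons, spread most. Its TRAP libraries stood at 5.26, 5.64, 4.84 and 4.87 log2 CPM and its INPUT libraries at 5.09, 4.35, 5.42 and 5.25. VP2.2 gave a difference of 1.30, while VP2.6 and VP2.11 went the other way by -0.58 and -0.38. The mean difference of 0.13 (95% interval -0.50 to 0.75, limma adjusted p = 0.77) became -0.26 without VP2.2 and -0.03 with the length trend taken out. The low deposited INPUT value of VP2.2 stood beside 42.4 CPM by reads scaled to estimated library size, against 39.3 CPM in VP2.6. The estimated size of each pool can hold an unknown factor, so levels by reads are not strictly comparable between VP2.2 and VP2.6. The direction depended on the pools and the fit, so no direction can be given for this gene.

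Clcn2 (chr16:20702964-20717746, minus strand), the plasma membrane channel, was the lowest member. It stood at 4.33, 6.34, 5.02 and 5.21 CPM in TRAP and 4.92, 3.34, 4.34 and 4.5 CPM in INPUT. The fractions overlapped, with TRAP above INPUT in 3 pools and below it in VP1.6. The log2 difference of 0.29 had the widest interval of the members, -0.50 to 1.08 (limma, adjusted p = 0.58), and was 0.08 without VP2.2 and 0.45 without VP1.6. Its recovered reads were 109 in TRAP and 174 in INPUT of VP2.2, and 65 and 112 in VP2.6.

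Vdac1 (chr11:52360860-52389397, plus strand), the most abundant porin, stood at 9.87, 9.73, 9.77 and 9.66 log2 CPM in TRAP and 9.41, 9.39, 9.47 and 9.59 in INPUT. It was higher in TRAP in 4 of 4 pools, by 0.07 in VP2.11 and 0.30 to 0.46 in the others, and the fractions did not overlap. The log2 difference was 0.29 ± 0.23 (SE), with a 95% interval of -0.20 to 0.78 (limma, adjusted p = 0.35). With the length trend taken out it was 0.52 (limma, adjusted p = 0.066). Vdac1 has the shortest exon sequence of the members (2620 bases). Clcn3, Clcn5 and Vdac1 were the 3 of 9 members whose fractions did not overlap with TRAP above, against 23.3% of all genes. No member lay below in this way, against 24.4% of all genes. These are the same genes as those higher in all 4 pools, for the members and for all 3320 genes concerned, because the values of each pool lay on either side of one level per gene in all 14249 genes, within the rounding of the values, so the lack of overlap adds nothing to the direction within pools.

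Vdac2 (chr14:21825238-21845879, plus strand), the form that holds the apoptosis effector Bak in check, stood at 8.83, 8.84, 8.67 and 9.15 log2 CPM in TRAP and 8.59, 8.41, 8.73 and 8.38 in INPUT. TRAP was above INPUT in 3 pools, by 0.77 in VP2.11, and just below it in VP2.6. The log2 difference was 0.34, with a 95% interval of -0.14 to 0.83 (limma, adjusted p = 0.26), and was 0.20 without VP2.11. Vdac3 (chr8:22577075-22593813, minus strand), the least studied of the porins, stood at 9.71, 9.55, 9.69 and 9.25 log2 CPM in TRAP and 9.18, 9.17, 9.16 and 9.56 in INPUT. In VP2.11 it went the other way from the other 3 pools, by -0.31 against 0.37 to 0.53, and also the other way from Vdac2 in that pool. The mean difference was 0.28, with a 95% interval of -0.23 to 0.80 (limma, adjusted p = 0.40), and it was 0.48 without VP2.11. Vdac3-ps1, the pseudogene with which Vdac3 shares the printed stretch, was listed at 42.4 ± 12.7 CPM in TRAP and 47.9 ± 8.31 CPM in INPUT (SD, n = 4), against 755 ± 105 and 621 ± 89.3 CPM for Vdac3. In the pools it moved against Vdac3, with log2 differences of -0.87, -0.48, -0.14 and 0.67, and a mean of -0.20 (limma, adjusted p = 0.58). With the length trend taken out the direction turned and the pseudogene passed (0.57, limma adjusted p = 0.046). How reads were divided between the gene and its copy was not tested.

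**Figure D2:**
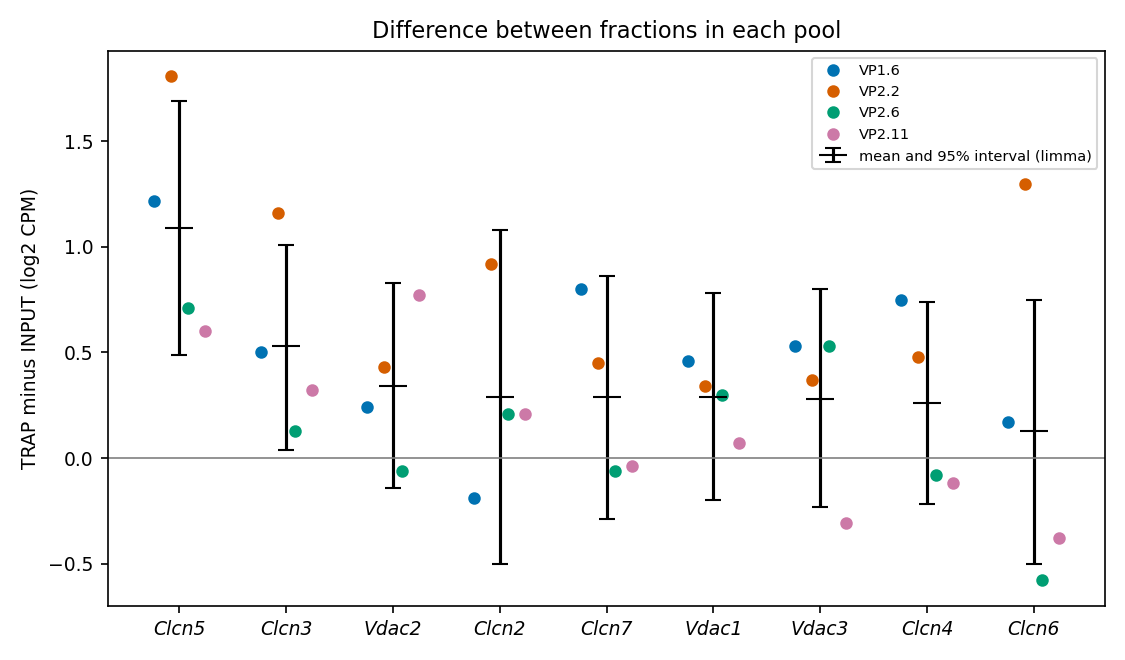
TRAP minus INPUT (log2 CPM, y axis) for each member (x axis, in order of the mean). Points are the 4 pools, and bars give the mean with its 95% interval from limma. The intervals of Clcn5 and Clcn3 lie above 0, the other 7 include it, and VP2.2 gives the highest point of Clcn5, Clcn3, Clcn2 and Clcn6.

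Per kilobase of exon the porins were above the CLC genes in both fractions. Vdac1 stood at 331 ± 20.3 CPM per kilobase in TRAP (SD, n = 4), rank 135 of 14249 genes, followed by Vdac3 at 139 ± 19.3 and Vdac2 at 99.0 ± 14.3, whose ranges over the libraries overlapped. Among the CLC genes Clcn4 led with 17.8 ± 2.79, above Clcn3 (8.02 ± 0.756) and Clcn6 (6.16 ± 1.69), whose ranges overlapped. Clcn7 (3.22 ± 0.463), Clcn5 (1.99 ± 0.205) and Clcn2 (0.868 ± 0.139) followed, each range separate from the next. The order in INPUT was the same except that Clcn6 (5.70 ± 1.62) and Clcn3 (5.64 ± 1.13) changed places within overlapping ranges, that Vdac3 and Vdac2 no longer overlapped, and that Clcn5 (0.963 ± 0.269) now overlapped with Clcn2 (0.71 ± 0.111). Clcn5, the only member that passed the test, was thus still among the lowest in TRAP, at percentile 34.9 of all genes, up from 18.8 in INPUT. The exon length used is the union over annotated transcripts, and it understates the level of genes that use few of their exons. The order of some genes turns on this choice. The longest transcript has 2039 bases in Vdac2 and 4174 in Vdac3, against unions of 4769 and 5420. Divided by that length, the mean level of Vdac2 would lie above that of Vdac3 in both fractions. Clcn3 (8193 bases) would likewise lie above Clcn6 (5198 bases) in both.

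The makeup of each family was then taken as the share of each gene in the summed CPM per kilobase of the family. Clcn5 made up 4.65%, 5.37%, 5.37% and 5.64% of the CLC sum in TRAP and 3.03%, 2.67%, 3.09% and 3.66% in INPUT. Its share was higher in TRAP in 4 of 4 pools, by 2.15 ± 0.456 percentage points (SD), which gives the smallest p that swaps of fractions within 4 pools allow (exact permutation test, two-sided, p = 0.125), so this design cannot reach 0.05. For the other CLC genes the direction of the share differed between pools. Clcn4 held the largest part of the sum, 46.7% ± 3.08 in TRAP and 49.0% ± 3.75 in INPUT, followed by Clcn3 (21.2% ± 1.61 and 18.4% ± 1.66) and Clcn6 (16.0% ± 2.63 and 18.4% ± 2.92). These shares and their differences hold the shifts of the deposited values, which differed between genes. In TRAP of VP2.2 the shifts were -1.06 for Clcn6, -0.33 for Clcn3 and -0.30 for Clcn4 (log2). By reads per kilobase Clcn6 would lie above Clcn3 in both libraries of VP2.2. The shares also depend on the exon length used.

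Among the VDAC genes the deposited share of Vdac1 varied least. The share of Vdac1 lay between 57.2% and 58.9% in the 4 TRAP libraries and between 58.0% and 59.1% in the 4 INPUT libraries. The deposited values do not hold the spread between pools in full, so this narrow range is no measure of how alike the pools were. Vdac2 and Vdac3 took the rest in varying parts: Vdac2 ranged from 15.0% to 22.1% in TRAP and from 13.9% to 19.1% in INPUT, with TRAP VP2.11 the highest and INPUT VP2.11 the lowest. As the values of a pool lay on either side of a common level per gene, these extremes are not separate observations. The summed level of the VDAC genes was higher in TRAP in 4 of 4 pools, 569 ± 28.1 against 463 ± 29.8 CPM per kilobase (exact permutation test, two-sided, p = 0.125, the smallest possible), whereas that of the CLC genes was higher in 2 of 4 (38.0 ± 5.17 against 30.5 ± 5.26, p = 0.5 by the same exact test).

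**Figure D3:**
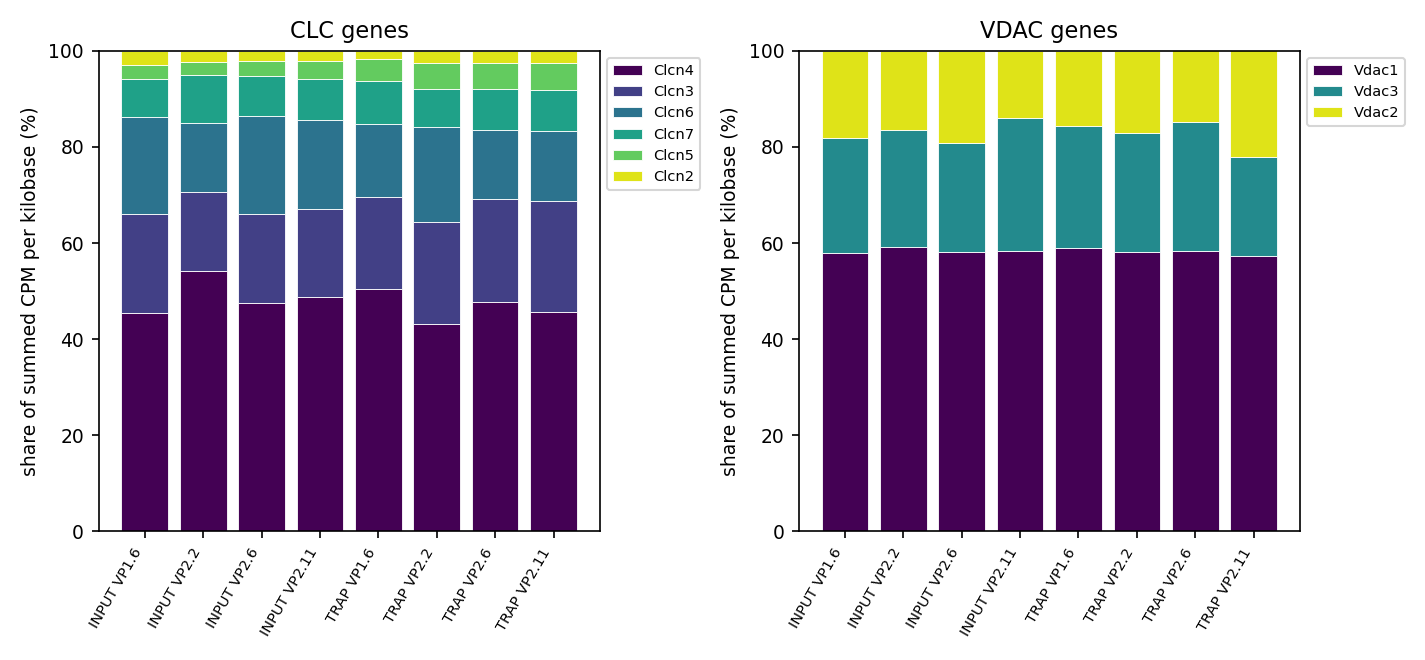
Share of each gene in the summed CPM per kilobase of exon of its family (%, y axis) in each of the 8 libraries (x axis), for the CLC genes on the left and the VDAC genes on the right. The Clcn5 band is thicker in the TRAP libraries, 5.26% on average against 3.11%, while the Vdac1 band keeps nearly one height.

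Genes that work with these families were read from lists. Of the CLC relatives and partners, 6 were measured and 2 passed, both lower in TRAP. They were Hepacam, which fell to 0.217 of its INPUT level (limma, adjusted p = 0.0014), and Mlc1, which fell to 0.492 of it (limma, adjusted p = 0.014) but was not called without VP2.6 (0.066) or VP2.11 (0.064). Their products are astrocyte membrane proteins known to associate with the Clcn2 channel. Hepacam stood at 1.61 to 7.83 CPM in TRAP and 13.1 to 22.8 CPM in INPUT. Ostm1, the Clcn7 subunit, differed by 0.09 (95% interval -0.52 to 0.71), Clcc1 by 0.07, Tmem9 by 0.23 and Tmem9b by -0.32, and none of these 4 passed.

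Astrocyte markers also ran lower in TRAP, where 4 of 5 were called lower and their summed level was 150 to 253 CPM against 343 to 502 CPM in INPUT. Oligodendrocyte markers (4 of 5 lower, 900 to 1630 against 3510 to 3810 CPM) and microglial markers (3 of 5 lower, 16.6 to 25.5 against 57.5 to 92.3 CPM) did the same. The remaining oligodendrocyte marker, Mag, went the other way by 0.607 (log2) and was not called. With the length trend taken out, 1 oligodendrocyte marker was called higher. The defining glutamatergic markers were called higher in 3 of 3, with Slc17a6 at 130 to 162 CPM in TRAP and 14.4 to 39.4 CPM in INPUT, and 4 of 5 general neuron markers were called higher. Among the GABAergic markers Slc32a1 was called lower (though not without VP1.6, limma adjusted p = 0.058) and Gad1 and Gad2 were not called, 1 of 2 oligodendrocyte precursor markers (Cspg4) and 1 of 2 endothelial markers (Flt1) were called higher, and none of the glial lists was at 0 in TRAP. The part of these cells in the differences of the CLC and VDAC genes and their partners was not tested.

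Of 18 measured genes for other anion channels, 6 were called lower and 0 higher in TRAP by limma with the block (1 higher without it), and the median log2 difference was -0.39. Over all genes 16.8% were called lower and 15.4% higher, the shares against which the count of each list stands. Without VP2.6 only 3 of the 18 were called. The largest falls were those of Clic1, an intracellular chloride channel family member that fell by 2.12, and Ttyh2, a tweety family gene that fell by 2.03 and stood at 19.4 to 27.0 CPM in TRAP against 64.4 to 129 CPM in INPUT. The V-ATPase, the pump that acidifies the compartments where Clcn3 to Clcn7 work, had 6 of 20 subunit genes higher and 2 lower, with a median of 0.23. Atp6v1a, the catalytic subunit, rose by 2.01 (limma, 95% interval 1.47 to 2.56) to 2240 ± 230 CPM in TRAP from 569 ± 152 CPM in INPUT (SD, n = 4), and Atp6v1h rose by 1.23. In the same complex Atp6v0e fell by 2.42 and Atp6v1f by 0.83. The call of Atp6v1f was lost without VP1.6 (limma, adjusted p = 0.062), without VP2.11 (0.058) and with the length trend taken out (-0.17, adjusted p = 0.57), and its difference was -0.54 without VP2.2. The lysosomal genes were divided, with 2 of 21 higher (Grn, the progranulin gene, by 1.49, and Gaa, acid alpha-glucosidase, by 0.76) and 2 lower (Cd63, a tetraspanin, fell to 0.177 of its INPUT level and Npc2, a cholesterol carrier, to 0.341 of it), with a median of 0.12. Without the pool block, where the error is understated, 5 were higher and 3 lower. The call of Gaa was lost without VP1.6 (limma, adjusted p = 0.064) or VP2.11 (0.11).

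Of the genes of the mitochondrial outer membrane and the partners of VDAC, 4 of 30 were called higher and 8 lower, with a median of -0.24. Hk1, the brain hexokinase that docks on VDAC, rose by 1.67 to 319 ± 75.7 CPM from 98.8 ± 16.0 CPM (SD, n = 4), and Ckmt1, the mitochondrial creatine kinase, rose by 1.37 to 977 ± 162 CPM from 377 ± 53.9 CPM. Bak1, the apoptosis effector, and Tspo, the translocator protein, were also called lower (-2.16 and -1.86), but they stood at 0.243 to 1.09 and 0.373 to 1.76 CPM in TRAP and passed the filter through INPUT, so their calls carry little weight. Bak1 was not called without VP2.2 (limma, adjusted p = 0.055) or VP2.6 (0.15), nor Tspo without VP2.2 (-1.20, limma adjusted p = 0.15) or with the length trend taken out (-1.20, adjusted p = 0.09). None of the 3 porins passed.

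**Figure D4:**
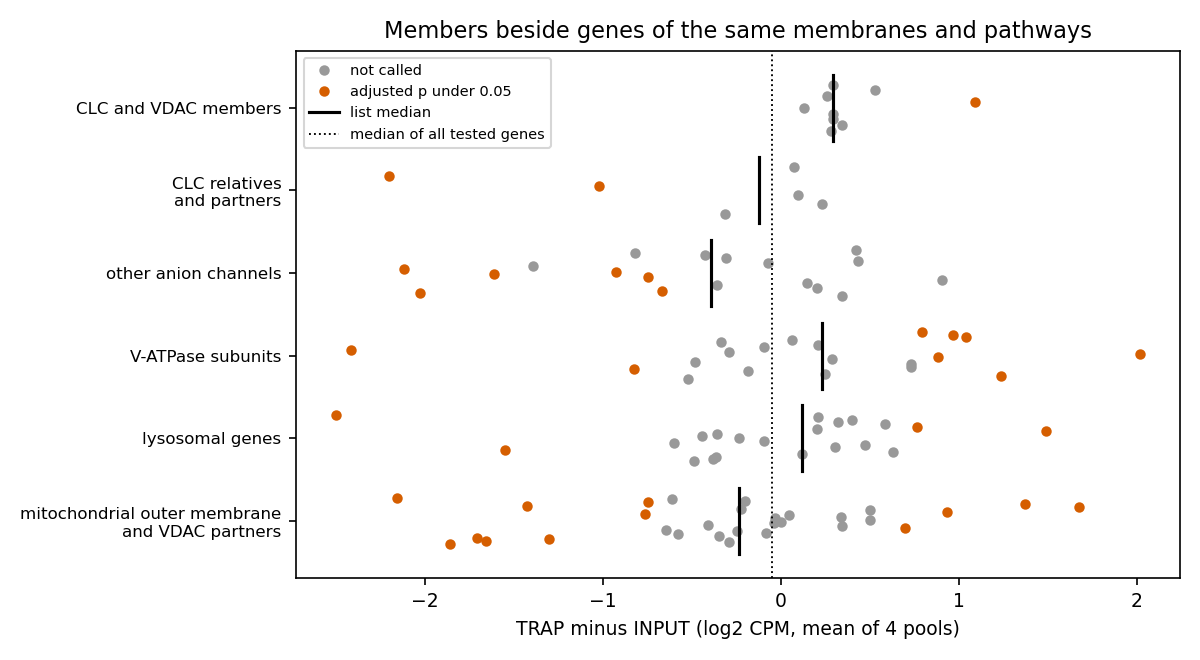
TRAP minus INPUT (log2 CPM, mean of 4 pools, x axis) for the members and for each list of related genes (y axis). Points are genes, orange where the adjusted p is under 0.05, short lines are list medians, and the dotted line is the median of all tested genes (-0.05). Among the members only Clcn5, at 1.09, is orange, while the V-ATPase, lysosomal and mitochondrial lists have orange points on both sides of 0.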

How the data were processed

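RNA-seq of TRAP and INPUT from 4 pools of VP tissue (8 libraries, single reads of 75 bases) was analysed. Per the labels and the methods, alignment used STAR 2.5.1a and an Ensembl mouse assembly. The authors counted uniquely aligned reads with featureCounts and applied TMM factors from edgeR and limma with voom and sample quality weights. The deposited values used here are log2 CPM. Beside them the authors deposited results of their own comparison, namely log2 fold changes, p-values and scores such as a signed linear fold change, as well as transcript numbers. None of these were used.

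The table has 14398 entries, of which 45 repeats were dropped. The filter asked for more than 1 CPM in 3 or more libraries. The test was limma 3.58.1 (R 4.3.3; eBayes with a trend) with fraction and pool as terms, since TRAP and INPUT of a pool come from the same mice, and Benjamini-Hochberg adjustment at 0.05. Deviations of same-pool libraries from the means of their fractions were opposed across genes, with correlations of -0.745 to -0.495, against 0.0457 to 0.441 for different pools. In 100% of genes the 4 pools' pairs lay on either side of a common level (tolerance: rounding of the deposited values), against 53.1% to 62.1% when INPUT pools were exchanged. The SDs over libraries therefore do not hold the spread between pools in full. TRAP minus INPUT within a pool is not touched by a shift common to both libraries.

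Whole reads were recovered from the differences of low genes in VP2.2 (98.6% of 4718 genes whole) and VP2.6 (99.9% of 4618). INPUT VP1.6 and both libraries of VP2.11 were rounded to 3 significant digits, so their depth is unknown. Depth intervals cannot be given for them. Exon lengths, positions and sequences came from GENCODE M21 (GRCm38), matched by gene identifier for 14353 of 14353 genes. The limma fit with the block was run on simulated log2 values with known changes. Those values had pool shifts shared by both fractions, not the opposed deviations seen here. The genes, lists and tests were chosen with earlier results of these data known. Named from each list were the 2 largest called rises and falls, and every CLC relative or partner. Alternatives changed the block, weights, trend, filter, pseudocount, scaling, length correction and pools. The pools are separate sets of mice.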

Additional observations from a re-analysis of the deposited data

Results flagged for a closer look

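Vdac3 in INPUT of VP2.11 stood at 9.56 log2 CPM, apart from the other 3 INPUT libraries, which lay at 9.16 to 9.18. Its gap to the nearest library was 0.948 of the range of the group, above Dixon's limit for 4 samples. That limit assumes independent values, but the values of each pool lay on either side of a common level per gene. The flag therefore cannot tell an odd INPUT library from the reversed Vdac3 difference of VP2.11 (-0.31). Among the 18 groups of 4 libraries looked at (9 members in 2 fractions) 1 was singled out in this way, and chance at 1 in 20 gives 0.9. The values of this library were deposited with 3 significant digits.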

How the results depend on the processing

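Clcn5 passed limma with the same direction in every alternative but the one with the exon-length trend removed (0.66, adjusted p = 0.052), where 0 members passed by limma. Without the replicate block 2 members passed, Clcn5 and Clcn3, and 6830 genes in place of 4592. With array weights and no replicate block, an alternative chosen after seeing the data, 4 members passed (also Vdac1 and Vdac3) and 8645 genes. Fits without the block leave out the opposed deviations of same-pool libraries, so their p-values are too small and their counts too high. Directions reversed with the length trend removed for Clcn3 (-0.05), Clcn4 (-0.06) and Clcn6 (-0.03). Clcn6 also reversed with array weights (-0.12 with the block, -0.17 without) and ranged from -0.26 to 0.36 when pools were left out in turn, the lowest without VP2.2. Leaving out a pool gave 3232 to 4156 genes and 1 member each. The lists moved by 1.5 times or more in several alternatives, among them the lysosomal genes from 4 called to 8 without the block, 10 with array weights and 7 without VP2.2, the V-ATPase subunits from 8 to 4 without VP1.6, the other anion channels from 6 to 3 without VP2.6, the mitochondrial genes from 12 to 8 without VP2.2, and the CLC relatives and partners from 2 to 1 without VP2.6, without VP2.11 or without the eBayes trend. Reads were recovered in 2 of 4 pools, where Clcn2 had the fewest, 65 to 174 a library. Counting error was not separated from the spread between pools.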

Other observations

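The recovered reads allow the deposited level of each CLC gene to be set beside the level that its reads give. In VP2.2, Clcn6 had 1314 reads in TRAP and 1619 in INPUT. Scaled to estimated library size they gave 104 and 42.4 CPM, while the deposited levels of Clcn6 were 50.0 and 20.4 CPM. The deposited value was thus lower by the same amount in both libraries of the pool (-1.06 on the log2 scale), which leaves TRAP minus INPUT as it was. In VP2.6 the same gene differed by 0.12. These amounts also hold any error in the estimated library sizes of a pool, which would be common to all its genes. For Clcn5 the deposited values differed from those of the reads by -0.32 in VP2.2 and -0.02 in VP2.6, and for Clcn7 by -0.56 and -0.34.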
